A study of Mus musculus with 27 samples.

Results

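The genes described here are the effector cytokines and the death ligand with which an activated CD8 T cell acts on other cells: Ifng, Tnf, Il2, Fasl, Lta, Csf2, Il3 and Il10. They were chosen by name, as secreted or membrane-bound effector molecules of T cells, and are 8 of the 35275 genes in the expression tables. Their mRNA was measured by RNA sequencing in 27 libraries of mouse CD8 T cells that carry the transgenic P14 T cell receptor, in 3 genotypes and at 3 stages with 3 libraries in each of the 9 groups. The study asked how the amount of let-7 microRNA alters the CD8 T cell transcriptome.

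All mice carried P14 on a Rag2-/- background, so that endogenous T and B cell receptors are not rearranged, and young adult mice of both sexes were used per the study's methods. WT cells carry no further transgene. The lin28Tg mice (Lin28bTg in the labels) express Lin28B, an RNA-binding protein that blocks the maturation of let-7 precursors. The let-7Tg mice express let-7g from a doxycycline-inducible transgene inserted at the Col1a1 locus, and per the methods the control mice were given doxycycline as well. Naive cells (0 h) were taken from lymph nodes without stimulation. Cells at 12 h were stimulated with 2 μg/mL anti-CD3 and 5 μg/mL anti-CD28 antibodies, with 2 μg/mL doxycycline. Day 5 cytotoxic T lymphocytes (CTLs) were generated with irradiated splenocytes and 2 μg/mL anti-CD3, with 100 U/mL IL-2 added at 48 h and 2 μg/mL doxycycline. Stage therefore cannot be told apart from stimulus and culture. In such bulk samples, fewer cells of a type and less RNA per cell cannot be told apart either. No label says whether libraries with the same number share a mouse.

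Activation through the T cell receptor turns on a burst of cytokine transcription, through NFAT, AP-1 and NF-kappaB, that is brief because the mRNAs are unstable and the stimulus is lost. The 8 genes fall into several roles. Interferon gamma (Ifng), TNF (Tnf) and lymphotoxin alpha (Lta) are the inflammatory effectors, Fas ligand (Fasl) triggers apoptosis in cells bearing Fas, IL-2 (Il2) drives T cell proliferation, GM-CSF (Csf2) and IL-3 (Il3) act on myeloid and haematopoietic cells, and IL-10 (Il10) restrains inflammation. let-7 microRNAs repress mRNAs whose 3′ UTR pairs with bases 2 to 8 of the microRNA, the seed.

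The mature let-7 sequences are shown because the genotypes differ in this microRNA family, with the seed in capitals (RefSeq, GRCm38.p6). All 9 mature 5p members of the family in the reference carry the seed GAGGUAG, and the transgene product let-7g differs from let-7a only after it.
mmu-let-7g-5p: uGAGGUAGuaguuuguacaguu
mmu-let-7a-5p: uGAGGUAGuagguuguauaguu

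The seed match CTACCTC, searched on the sense strand of the longest annotated 3′ UTR of each gene (GENCODE M21), was found once in Fasl and in none of the other 7 genes. For comparison, 9.02% of 21027 annotated 3′ UTRs hold it. The Fasl match lies in the stretch below, with the 7 matching bases in capitals, at chr1:161781194-161781223 on the minus strand (GRCm38), at position 364 of a 3′ UTR of 887 bases. A match is a run of letters, and these data do not say whether let-7 binds there.
Fasl 3′ UTR: gggtctacttaCTACCTCacagaggccgtt

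The other sequence feature that separates the 8 genes is the AU-rich pentamer ATTTA, a letter pattern of unstable cytokine mRNAs. Csf2 held 9 copies in 317 bases of 3′ UTR (28.4 per kilobase), Il2 7 in 581 bases (12.0) and Tnf 8 in 764 bases (10.5). Il3 held 1 in a 3′ UTR of 101 bases (9.90 per kilobase), near the rates of Ifng (9.51) and Il10 (8.50), which held 6 copies each. Lta held 3 (5.24 per kilobase), and Fasl 1 in 887 bases (1.13). Over all annotated 3′ UTRs the pentamer occurred 1.93 times per kilobase, and 65.2% of them held at least 1. The longer word TTATTTATT, which 7.66% of 3′ UTRs hold and which contains the pentamer, was found 5 times in Tnf, 4 times in Csf2 and once each in Il2 and Lta.

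The promoters of Il2 and Il3 are printed because this pair had the most alike pattern of expression among the 8 genes. Each run of 300 bases spans 250 bases before to 50 after the annotated start (RefSeq, GRCm38.p6), at chr3:37125905-37126204 for Il2 and chr11:54267230-54267529 for Il3, both on the minus strand. Capitals mark the words searched for on both strands: GGAAAA (or TTTTCC on the other strand), the core bound by NFAT, and TATAAA. Il2 held 2 copies of the NFAT core and 1 TATAAA, and Il3 held neither word in this window.
Il2 promoter: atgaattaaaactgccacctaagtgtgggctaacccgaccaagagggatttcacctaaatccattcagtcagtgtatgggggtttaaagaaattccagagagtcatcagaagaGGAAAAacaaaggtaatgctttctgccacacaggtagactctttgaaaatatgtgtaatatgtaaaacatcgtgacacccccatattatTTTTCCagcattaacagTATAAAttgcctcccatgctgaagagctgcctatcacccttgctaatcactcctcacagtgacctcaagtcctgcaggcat
Il3 promoter: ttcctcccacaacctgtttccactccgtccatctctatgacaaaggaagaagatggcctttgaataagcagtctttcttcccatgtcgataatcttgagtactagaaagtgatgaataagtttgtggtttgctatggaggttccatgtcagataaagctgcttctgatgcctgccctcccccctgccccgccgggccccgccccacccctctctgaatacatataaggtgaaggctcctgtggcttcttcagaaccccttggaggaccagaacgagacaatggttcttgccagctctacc

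A promoter was matched for 7 of the 8 genes. The NFAT core was also present in 2 copies in Tnf and 1 in Fasl, against 23.4% of 32851 promoters that hold it at least once, and TATAAA in 1 copy each in Ifng, Tnf and Lta, against 13.6%. The AP-1 word TGANTCA (7.81% of promoters) and the T-box word TCACACCT (1.28%) were found in none of the 7. The Csf2 window lies outside the gene as GENCODE M21 places it, and a missing word says only that these letters are not in this window.

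Library totals ranged from 13862706 to 23591069 reads, at which 10 reads on a gene of 2 kilobases equal 0.212 to 0.361 FPKM (sequenced fragments divided by gene length in kilobases and by library size). FPKM are per length, so levels can be compared between genes. Lin28b was at 10.9 ± 1.45 to 63.5 ± 6.16 FPKM (SD, n = 3) in the lin28Tg groups and at no more than 0.059 FPKM in any WT library. Col1a1, where the let-7 transgene is inserted, averaged 13.3 to 40.6 FPKM in the let-7Tg groups and 0.0839 to 3.77 in the others. The T cell markers Cd3d, Cd3e, Cd3g, Cd8a and Cd8b1 were present in every group, and Gzmb and Prf1 summed to 1282 to 8544 FPKM in day 5 libraries against 41.7 to 67.6 in naive ones. In the 3 lin28Tg naive libraries, summed markers of other cells lay above all 6 other naive libraries: myeloid 159 to 743 FPKM against at most 65.7, dendritic 354 to 1064 against at most 185, NK 79.4 to 126 against at most 55.9, erythroid 375 to 1494 against at most 217, and neutrophil 36.6 to 109 against at most 15.2. At every stage the NK list includes Eomes, a transcription factor of CTLs as well. In naive cells Eomes was 1.86 higher in lin28Tg than in let-7Tg on the log2 scale (limma, adjusted p = 0.000482). Against WT it was 0.976 to 1.43 higher over 13 alternative fits. The NK sum is therefore not a measure of NK cells alone.

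Across the stages, the 8 genes followed 2 courses. Ifng, Tnf, Lta, Il2, Il3 and Csf2 were highest at 12 h, and Fasl and Il10 were highest at day 5. From naive to 12 h, 7 of the 8 genes rose in each genotype and Il10 was not called, where 71.0% of all 14453 genes tested were called in WT, 73.5% in lin28Tg and 69.3% in let-7Tg. The shares of all genes called higher were 34.6%, 35.9% and 34.4%. The median difference of the 8 genes was 3.15 on the log2 scale in WT, 3.88 in lin28Tg and 3.74 in let-7Tg, against -0.05, -0.03 and -0.03 over all genes. From 12 h to day 5, Fasl and Il10 rose in each genotype and the other genes fell, except Csf2 in WT (-0.66, adjusted p = 0.143), which was called without WT replicate 2 of day 5 (-1.04, 0.0323). That made 7 genes called in WT and 8 in each of lin28Tg and let-7Tg, where 67.3%, 66.2% and 67.2% of all genes were called. These tests used limma on log2(FPKM + 0.5) with Benjamini-Hochberg adjustment over all genes, as did all below unless another test is named. A gene is called when its adjusted p is under 0.05.

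**Figure D1:**
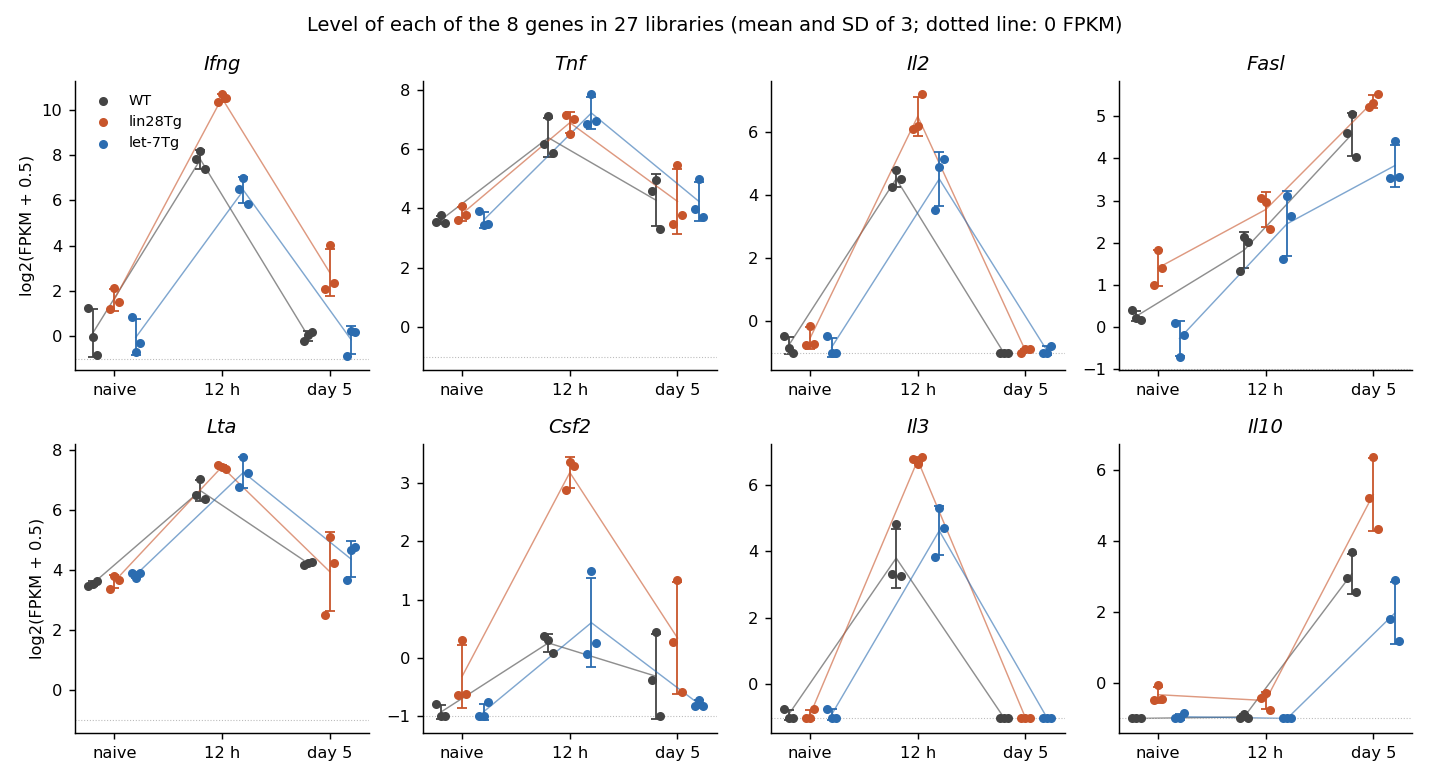
Level of each of the 8 genes as log2(FPKM + 0.5) (vertical axis) at the naive, 12 h and day 5 stages (horizontal axis) in WT, lin28Tg and let-7Tg libraries. Points are single libraries, bars the mean and SD of 3, and the dotted line 0 FPKM. Ifng, Tnf, Lta, Il2, Il3 and Csf2 peak at 12 h, Fasl and Il10 at day 5, and the lin28Tg points at 12 h stand above the others for Ifng, Il2, Il3 and Csf2.

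Within a stage, the genotype differences were mostly between lin28Tg cells and the others. At 12 h, 4 of the 7 genes tested were called between lin28Tg and WT, all higher in lin28Tg, where 8.49% of all 12239 genes were called and 6.1% called higher. Csf2, among these 4, entered the test through the lin28Tg libraries, as most WT and let-7Tg libraries were below the filter of 10 reads. For let-7Tg against WT 1 of 7 was called, lower in let-7Tg (3.24% of all genes called, 1.87% lower). Between lin28Tg and let-7Tg it was 4 of 7, higher in lin28Tg (30.8% called, 16.3% higher). The median difference of the 7 genes was 1.96 between lin28Tg and WT, 0.58 between let-7Tg and WT and 1.99 between lin28Tg and let-7Tg, while the medians of all genes lay within 0.02 of 0. The 3 comparisons share libraries and are not independent of each other. The summed markers of dendritic cells were higher in lin28Tg (35.0 to 61.0 FPKM) than in WT (16.2 to 32.1) and let-7Tg libraries (9.02 to 30.3) at 12 h, and those of NK cells overlapped (35.0 to 47.8 in lin28Tg, 21.1 to 42.4 in WT, 11.2 to 34.5 in let-7Tg). B cell sums were higher in lin28Tg too (2.71 to 3.03 FPKM, against 1.46 to 1.76 in WT and 1.56 to 1.83 in let-7Tg). Erythroid sums were 60.2 to 527 in lin28Tg, 19.7 to 81.3 in WT and 0.774 to 4.10 in let-7Tg. Myeloid, CD4 T cell, neutrophil and mast cell sums overlapped between lin28Tg and WT. The part of these cells in the results at 12 h was not tested.

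**Figure D2:**
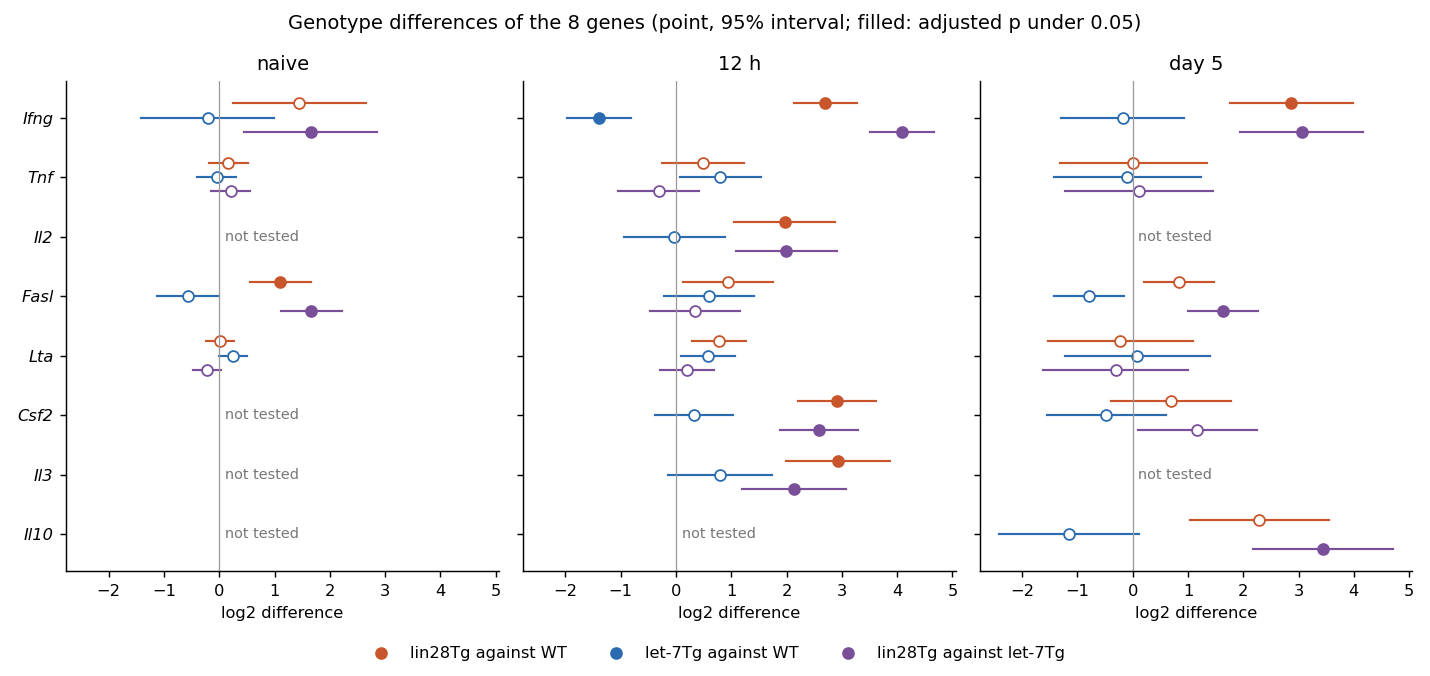
Log2 difference of each gene between genotypes (horizontal axis) at the naive, 12 h and day 5 stages (panels), with the 95% interval of limma as a line. Filled points are called (adjusted p under 0.05) and open points are not. Ifng, Il2, Csf2 and Il3 at 12 h lie to the right of 0 for lin28Tg against WT, Tnf and Lta are called in no panel, and Ifng at 12 h is the only gene called for let-7Tg against WT.

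Ifng (chr10:118441046-118445892, plus strand) had the highest level of the 8 genes, in lin28Tg cells at 12 h, and was called in more genotype comparisons than any of the others. At 12 h the WT libraries were at 226.6, 294.2 and 168.6 FPKM, the lin28Tg libraries at 1310, 1666 and 1473, and the let-7Tg libraries at 90.5, 127.3 and 56.7. The 3 groups did not overlap. Ifng was 2.70 higher on the log2 scale in lin28Tg than in WT (SE 0.256, adjusted p = 0.000578), and 4.09 higher in lin28Tg than in let-7Tg (SE 0.256, adjusted p = 2.12e-05). Both calls held with any 1 of the 6 libraries left out.

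In let-7Tg cells Ifng was 1.39 lower than in WT on the log2 scale (difference -1.39, SE 0.256, adjusted p = 0.0291). This was the only genotype call between let-7Tg and WT in any of the 8 genes. It held with the replicate number as a block (SE 0.156, adjusted p = 0.0174, with 1.96% of all genes called), a pairing taken from these data and not from the labels. It was lost in 4 of 6 fits that left out a library: without WT replicate 1 (-1.38, adjusted p = 0.0914), WT replicate 2 (-1.22, 0.0659), WT replicate 3 (-1.59, 0.0728) or let-7Tg replicate 3 (-1.11, 0.0575). It was also lost with no filter on low reads (-1.41, 0.0685) and with the 2 groups fitted alone (-1.40, 0.0839). The direction was the same in all 6.

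The naive and day 5 levels of Ifng were more than 100-fold below those at 12 h by their means. Naive WT libraries were at 1.89, 0.469 and 0.0586 FPKM, lin28Tg libraries at 1.78, 3.86 and 2.32, and let-7Tg libraries at 1.28, 0.118 and 0.299. WT replicate 1 lay within the lin28Tg range, and the other WT libraries below it. Naive Ifng had 36, 8 and 1 reads in WT and 24, 2 and 5 in let-7Tg, and entered the test through the lin28Tg libraries. Between lin28Tg and WT the difference was 1.45 (SE 0.537, adjusted p = 0.0623), and without WT replicate 1 it was 2.02 and called (0.0124). Between lin28Tg and let-7Tg it was 1.66 (adjusted p = 0.0309), lost without lin28Tg replicate 2 (1.39, 0.0959), lin28Tg replicate 3 (1.72, 0.0622), let-7Tg replicate 2 (1.35, 0.102) or let-7Tg replicate 3 (1.52, 0.0932), and with no filter on low reads (1.66, 0.0651). Naive Ifng was highest in replicate 1 of WT and of let-7Tg and in replicate 2 of lin28Tg, which were also the libraries with the highest summed myeloid, dendritic and NK markers of their groups. The part of those cells in naive Ifng was not tested.

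At day 5 Ifng was at 0.354, 0.527 and 0.629 FPKM in WT CTLs, at 3.74, 15.7 and 4.59 in lin28Tg CTLs, and at 0.0423, 0.658 and 0.629 in let-7Tg CTLs. That is 8, 12 and 14 reads in WT, 87, 399 and 123 in lin28Tg and 1, 18 and 15 in let-7Tg. The WT and let-7Tg levels lie near the 0.5 FPKM added before the logarithm, on which the fitted differences depend. All lin28Tg libraries lay above all others. The difference was 2.87 against WT (SE 0.492, adjusted p = 0.0171, with the replicate block 0.00379) and 3.05 against let-7Tg (adjusted p = 0.00295). Against WT the call was lost without WT replicate 1 (2.77, 0.0718) or WT replicate 2 (2.89, 0.0503) and with weights from the recovered read counts (3.72, 0.0610). The let-7Tg difference from WT was -0.18 and not called. The size of the lin28Tg difference from WT did not pass the test of a change between stages, whereas against let-7Tg it was 2.51 larger at 12 h than in naive cells (SE 0.691, adjusted p = 0.0177). That change was not called with a pseudocount of 0.1 (1.75, adjusted p = 0.32) or with weights from the recovered read counts (1.45, 0.54).

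Tnf and Lta are neighbours on chromosome 17, Tnf at chr17:35199381-35202007 and Lta at chr17:35203165-35205351, 1158 bases apart on the minus strand. Neither was called between genotypes at any stage with all libraries. Tnf in naive cells ranged from 10.4 to 16.4 FPKM over all 9 libraries. At 12 h it was at 71.7, 138.4 and 57.2 FPKM in WT, 141.3, 89.7 and 128.8 in lin28Tg, and 114.6, 229.3 and 122.5 in let-7Tg. The 3 groups overlapped, and the lin28Tg difference from WT was 0.49 with a 95% interval of -0.25 to 1.22. The let-7Tg difference from WT was larger, at 0.80 (SE 0.328, adjusted p = 0.195, with the replicate block 0.180), and was not called. At day 5 Tnf spanned 9.37 to 44.0 FPKM, and the difference between lin28Tg and WT was 0.01 with an interval of -1.32 to 1.35, so a change of more than 2-fold either way lies within it.

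In naive cells Lta ranged from 9.91 to 14.4 FPKM. It differed by -0.23 between lin28Tg and let-7Tg (adjusted p = 0.128) and was called without lin28Tg replicate 2 (-0.32, 0.0483). Lta followed Tnf in its course, from 11.2 ± 0.765 FPKM in naive WT cells to 102.3 ± 26.4 at 12 h and 18.3 ± 0.592 at day 5 (SD, n = 3). At 12 h the WT libraries were at 91.1, 132.5 and 83.4, the lin28Tg libraries at 184.0, 173.8 and 166.1, and the let-7Tg libraries at 108.5, 219.7 and 151.1. Every lin28Tg library lay above every WT library, with a difference of 0.78 (SE 0.217, adjusted p = 0.0569). It was called without WT replicate 2 (0.97, 0.0288), with weights from the recovered read counts (0.0468), with the replicate block (0.0253, although the numbers do not pair these libraries) and with the 2 groups fitted alone (0.0188). The let-7Tg difference from WT was 0.58 (adjusted p = 0.160), and 0.82 without let-7Tg replicate 1 (0.0414). Ltb, the third gene of this cluster and the partner of Lta in the membrane-bound lymphotoxin, lies 3061 bases from Tnf and moved otherwise: it was 1.03 lower in lin28Tg than in WT CTLs (adjusted p = 0.00369), where Tnf and Lta were not called.

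Fasl (chr1:161780689-161788495, minus strand) was the gene called between lin28Tg and the other genotypes in naive cells, and rose at both steps of the course. Naive WT libraries were at 0.820, 0.659 and 0.622 FPKM, lin28Tg libraries at 1.49, 3.04 and 2.13, and let-7Tg libraries at 0.567, 0.110 and 0.373. The groups did not overlap. The difference of lin28Tg was 1.10 from WT (SE 0.248, adjusted p = 0.00841) and 1.67 from let-7Tg (SE 0.248, adjusted p = 0.000785), and each held in 6 of 6 fits without a library (0.89 to 1.30 and 1.45 to 1.86). Naive lin28Tg libraries differed widely from the others, so these calls stand against a high background: 1 of 4 genes tested was called between lin28Tg and WT, where 34.9% of all 13277 genes were, 2 of 4 between lin28Tg and let-7Tg (44.2%), and 0 of 4 between let-7Tg and WT (0.934%, with 1932 of all genes at an unadjusted p under 0.05 in limma and 51 called with weights from recovered reads). NK cells also express Fasl and Ifng, and lin28Tg replicate 2, the library highest in Fasl, was highest in NK, myeloid and dendritic markers too. The part of those cells in naive Fasl was not tested.

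**Figure D3:**
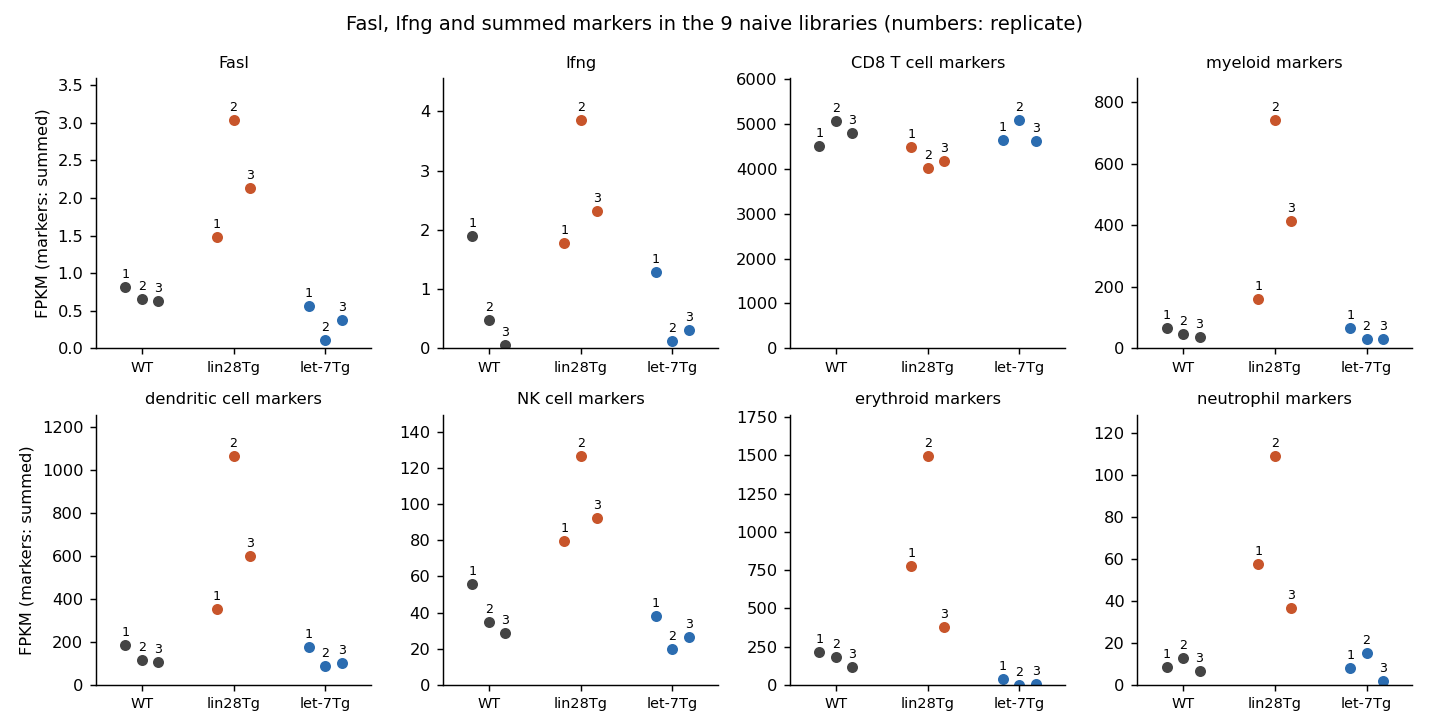
Fasl, Ifng and the summed markers of CD8 T cells, myeloid, dendritic, NK and erythroid cells and neutrophils in the 9 naive libraries, in FPKM on linear axes that start at 0, by genotype. Each point is a library and its number the replicate. lin28Tg replicate 2 is highest for Fasl (3.04 FPKM), Ifng (3.86) and each of the 5 marker sums of other cells, while its CD8 T cell sum (4025) is the lowest of the 9. The NK sum includes Eomes, a transcription factor of CTLs as well.

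At 12 h Fasl was at 2.02, 3.88 and 3.53 FPKM in WT, 7.87, 7.36 and 4.49 in lin28Tg, and 2.54, 8.16 and 5.71 in let-7Tg. The lin28Tg libraries lay above the WT ones without a call (0.95, SE 0.362, adjusted p = 0.144), and the let-7Tg libraries overlapped both. At day 5 Fasl reached its highest levels, 23.955, 32.7 and 16.004 FPKM in WT, 36.9, 39.1 and 45.5 in lin28Tg, and 11.03, 20.7 and 11.3 in let-7Tg. lin28Tg libraries were the highest 3 of the 9, and WT and let-7Tg overlapped. The difference was 1.63 between lin28Tg and let-7Tg (SE 0.279, adjusted p = 0.00381) and 0.84 between lin28Tg and WT (SE 0.279, adjusted p = 0.139). Same-numbered libraries deviated together at day 5, a pairing taken from these data and not from the labels. With the number as a block lin28Tg against WT was called (adjusted p = 0.0414), while let-7Tg against WT, at -0.79, was not in either fit (0.260 and 0.0879).

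Il2 (chr3:37120523-37125959, minus strand) was a gene of the 12 h stage alone. In naive cells it had 5 reads in the 3 WT libraries together, 15 in lin28Tg and 4 in let-7Tg, and at day 5 it had 0, 2 and 2. At 12 h the WT libraries were at 18.6, 27.2 and 22.3 FPKM, the lin28Tg libraries at 68.6, 72.4 and 146.9, and the let-7Tg libraries at 11.02, 28.9 and 34.8. The lin28Tg libraries lay above all others, replicate 3 by the most, and WT lay within the let-7Tg range. The difference of lin28Tg was 1.96 from WT (SE 0.409, adjusted p = 0.0184) and 1.99 from let-7Tg (SE 0.409, adjusted p = 0.00636). Against WT the call was lost without WT replicate 1 (1.84, 0.0753), WT replicate 3 (1.97, 0.0553) or lin28Tg replicate 3 (1.61, 0.0650), and against let-7Tg it held in all 6 fits. The let-7Tg and WT libraries differed by -0.03 (adjusted p = 0.976).

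The fall of Il2 to day 5 was at least 490-fold in WT, computed against a floor of 3 reads over the group because all 3 libraries were at 0. Il2 overlaps Adad1 in the annotation, and the sources used here do not say whether reads were counted by strand, so reads in the overlap could belong to either gene. Adad1 itself differed by 0.56 between lin28Tg and WT at 12 h (adjusted p = 0.279).

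Csf2 and Il3 are also neighbours, Csf2 at chr11:54247271-54249667 and Il3 at chr11:54265303-54267277, 15636 bases apart on the minus strand. Il3 had 1 read per genotype in naive cells and none in the 9 day 5 libraries. At 12 h it was at 9.47, 27.7 and 9.02 FPKM in WT, 108.1, 98.7 and 113.0 in lin28Tg, and 13.8, 39.0 and 25.6 in let-7Tg. The lin28Tg libraries were close to each other and lay above all others, while WT replicate 2 lay within the let-7Tg range. The difference was 2.93 from WT (SE 0.418, adjusted p = 0.00333) and 2.13 from let-7Tg (SE 0.418, adjusted p = 0.00512), and both held in all 6 fits without a library. The let-7Tg difference from WT was 0.80 (adjusted p = 0.304). From 12 h to day 5 Il3 fell at least 187-fold in WT, 1397-fold in lin28Tg and 338-fold in let-7Tg, against the same floor.

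Csf2 differed between lin28Tg and WT by as much as Il3 on the log2(FPKM + 0.5) scale, which understates differences of low genes. Its levels were more than 10-fold lower. At 12 h it was at 0.798, 0.746 and 0.558 FPKM in WT, which is 7 to 10 reads per library, at 6.82, 9.82 and 9.33 in lin28Tg (86 to 133 reads), and at 0.552, 2.29 and 0.698 in let-7Tg (7 to 28 reads). The lin28Tg libraries lay above all others. The difference was 2.91 from WT (SE 0.311, adjusted p = 0.000803) and 2.59 from let-7Tg (SE 0.311, adjusted p = 0.000439), and both held in all 6 fits without a library. Csf2 entered this test through the lin28Tg libraries, and the fits without a library kept the same genes. In naive cells Csf2 had 2, 14 and 2 reads in the lin28Tg libraries and 1 read each in WT and let-7Tg as groups. By read counts that is 13.8-fold more in lin28Tg than in WT (95% interval 2.18 to 575) and 13.6-fold more than in let-7Tg (2.15 to 568), covering counting error only. Most of these reads were in lin28Tg replicate 2, the library highest in markers of other cells, and without it the ratios were 5.21 (0.516 to 257) and 5.14 (0.509 to 253), whose intervals include 1. At day 5 the libraries ranged from 0 to 2.02 FPKM. That is 11, 34 and 3 reads in lin28Tg, 4, 13 and 0 in WT and 1, 2 and 1 in let-7Tg. Csf2 entered this test through lin28Tg and WT libraries, and no let-7Tg library reached the filter. lin28Tg differed from let-7Tg by 1.17 (adjusted p = 0.115), which was called with the replicate block (0.0196) and without lin28Tg replicate 3 (1.64, 0.0419).

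Il10 (chr1:131019845-131024974, plus strand) appeared in the CTLs. It had 0 reads in naive WT cells, 24 in lin28Tg and 1 in let-7Tg, and 1, 14 and 0 at 12 h. The naive lin28Tg level was at least 6.14-fold above WT, against the floor, and 18.2-fold above let-7Tg (95% interval 2.96 to 747, counting error only). Naive Il10 was highest in lin28Tg replicate 2 (0.453 FPKM), the library highest in the markers of other cells. Without that library it was at least 4.34-fold above WT and 12.9-fold above let-7Tg (1.83 to 558), and the part of those cells in it was not tested.

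At day 5 Il10 was at 7.29, 12.4 and 5.42 FPKM in WT, 36.7, 81.9 and 19.7 in lin28Tg, and 3.00, 6.98 and 1.78 in let-7Tg. In each genotype replicate 2 was the highest and replicate 3 the lowest, and all lin28Tg libraries lay above all others. The difference between lin28Tg and let-7Tg was 3.44 (SE 0.558, adjusted p = 0.00301). Between lin28Tg and WT it was 2.29 (SE 0.558, adjusted p = 0.0546), and with the replicate block it was called with a smaller error (SE 0.166, adjusted p = 0.000833). For let-7Tg against WT it was -1.15 (SE 0.558, adjusted p = 0.453), and with the block it was called too (adjusted p = 0.0167). Il10 and Fasl are thus ordered lin28Tg, WT, let-7Tg by their day 5 means, and for both genes WT and let-7Tg overlapped.

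At day 5 as a whole, 1 of the 6 genes tested was called between lin28Tg and WT (Ifng, where 4.34% of all 13030 genes were called), and 3 with the replicate block (Ifng, Fasl and Il10), in which 13.4% of all genes were called. Between lin28Tg and let-7Tg 3 of 6 were called (21.6% of all genes), and 4 with the block, Csf2 added (36.3%). Csf2 had only 1 to 2 reads per let-7Tg library. Between let-7Tg and WT 0 of 6 were called (0.929%), with 1640 of all genes at an unadjusted p under 0.05 in limma and 48 called with weights from recovered reads, and 1 of 6 with the block (Il10, where 4.05% of all genes were called). The summed NK list was higher in lin28Tg CTLs (141 to 303 FPKM) than in WT (68.5 to 96.9) and let-7Tg CTLs (18.9 to 48.3). Of its 5 genes, Klra8 was at 0 in WT and in lin28Tg, and Ncr1 was at 0 in WT but above 0 in lin28Tg. The largest term was Eomes, a transcription factor of CTLs as well (67.7 to 141.7 FPKM in lin28Tg). In lin28Tg replicate 3, where the list summed to 303 FPKM, its other genes together exceeded Eomes. The part of NK cells in the day 5 results was not tested. In day 5 libraries dendritic cell markers summed to at most 61.2 FPKM, CD4 T cell markers to 32.5, myeloid markers to 11.4 and B cell markers to 7.70. The neutrophil markers summed to at most 1.78 FPKM and the mast cell and basophil markers to at most 2.65 in any day 5 library.

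Whether a genotype difference changed between stages was tested directly. Between lin28Tg and WT, 3 of 8 genes passed from naive to 12 h (Il2, Csf2 and Il3, where 7.85% of all genes did) and 4 from 12 h to day 5 (Il2, Csf2, Il3 and Il10, 6.42%). Between lin28Tg and let-7Tg, 4 passed from naive to 12 h (Ifng, Il2, Csf2 and Il3, 13.4%) and 3 from 12 h to day 5 (Il2, Il3 and Il10, 20.9%). Between let-7Tg and WT none passed at either step (0.0969% and 1.35%), with 1100 and 1720 of all genes at an unadjusted p under 0.05 in limma and 0 and 80 called with weights from recovered reads. For Il2, Il3 and Il10, and for Csf2 and let-7Tg Ifng in naive cells, the other stage holds few or no reads. These values therefore follow the difference at the stage with expression and depend on the amount added before the logarithm. The Ifng change between lin28Tg and let-7Tg from naive to 12 h was 1.75 with a pseudocount of 0.1 (adjusted p = 0.32). The Csf2 change from naive to 12 h between lin28Tg and WT was 2.38, and 1.27 with weights from recovered reads (adjusted p = 0.722).

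Of 15 receptor genes for these molecules, 2 were called between lin28Tg and WT at 12 h (8.49% of all genes were), both higher in lin28Tg: the TNF receptor Tnfrsf1b at 0.69 (adjusted p = 0.0120) and the IL-2 receptor chain Il2rb at 0.66 (adjusted p = 0.0120). Tnfrsf1b was not called without WT replicate 1 (0.63), nor Il2rb without lin28Tg replicate 2 (0.66) or 3 (0.60). The median of the 15 was 0.56, against -0.01 for all genes. For let-7Tg against WT, 1 of 15 was called (3.24% of all genes), Tnfrsf1a at 0.42 (adjusted p = 0.0468), a call that held in 3 of 13 alternative fits and, of those without a library, only without let-7Tg replicate 1 (0.35 to 0.49 over the 13). In CTLs 2 of 12 were lower in lin28Tg than in WT and none higher (4.34% of all genes were called): Il10ra, the IL-10 receptor, at -0.76 (adjusted p = 0.0150), and Fas, the receptor of Fas ligand, at -1.05 (adjusted p = 0.0362). Fas was at 7.68, 4.70 and 4.24 FPKM in lin28Tg CTLs and at 13.3, 12.3 and 10.7 in WT CTLs. The groups did not overlap, but the Fas call held in 6 of 13 alternative fits and, of those without a library, only without lin28Tg replicate 1 (-1.27 to -0.90 over the 13). The Il10ra call was lost without WT replicate 1 (-0.70) and with the 2 groups fitted alone (-0.74). In naive cells 10 of the 15 were called, 9 of them higher in lin28Tg, among them Fas (0.57, adjusted p = 0.00138), where 34.9% of all genes were called. The summed myeloid, dendritic and NK markers were higher in these lin28Tg libraries too, and their part in the receptor counts was not tested.

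Among 15 other T cell cytokines, 10 were tested at 12 h, of which 5 were higher in lin28Tg than in WT and none lower, where 8.49% of all genes were called. By adjusted p, Il17a and Il13 came first. Il17a was at 6.67, 9.28 and 13.5 FPKM in lin28Tg against at most 0.0606 in WT, and Il13, a type 2 cytokine, at 2.74, 6.22 and 5.03 against at most 0.0990. Il17f differed by 4.07 and Il22, the nearest tested gene before Ifng on chromosome 10 at 230999 bases, by 4.00. Il17a and Il13 had 2 reads each in WT and entered the test through the lin28Tg libraries, and their fitted difference depends on the amount added before the logarithm (3.33 to 7.36 for Il17a over the alternatives). By read counts, Il17a was 270.4-fold higher in lin28Tg than in WT (579 against 2 reads, 95% interval 74.5 to 2238) and Il13 132.2-fold (283 against 2 reads, 36.2 to 1097), covering counting error only. None of the 10 was called between let-7Tg and WT at 12 h. In CTLs 1 of 10 was called between lin28Tg and WT (4.34% of all genes), Il16 at -0.48 (adjusted p = 0.0497), a call that held in 4 of 13 alternative fits and, of those without a library, only without lin28Tg replicate 1 (-0.56 to -0.43 over the 13).

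Of 9 other ligands of the TNF superfamily, 4 were higher and 1 lower in lin28Tg than in WT at 12 h, where 8.49% of all genes were called. Tnfsf4, which encodes OX40 ligand, was at 2.62, 3.49 and 4.02 FPKM in lin28Tg and at 0.962, 0.842 and 0.692 in WT (1.52, adjusted p = 0.00119), and Cd70, the ligand of CD27, differed by 2.25 (adjusted p = 0.00400). Tnfsf8, the ligand of CD30, went the other way: its difference from WT was -0.56 in lin28Tg and 0.86 in let-7Tg (adjusted p = 0.0143), the only ligand of the list called there (3.24% of all genes). The let-7Tg call was lost without WT replicate 3 (0.87), and the lin28Tg call without WT replicate 1 (-0.45) or 3 (-0.55) or lin28Tg replicate 2 (-0.51) or 3 (-0.53). In CTLs 7 were tested, of which Tnfsf9, the ligand of 4-1BB, was higher in lin28Tg than in WT (0.91, adjusted p = 0.0358) and Ltb lower (-1.03), where 4.34% of all genes were called. The Ltb call held in 13 of 13 alternative fits, and that of Tnfsf9 in 6 of 13 and, of those without a library, only without lin28Tg replicate 1 (0.74 to 1.04 over the 13).

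Of 27 transcription factors that act on cytokine genes, 8 were higher and 1 lower in lin28Tg than in WT at 12 h, where 8.49% of all genes were called. Stat5a, which carries IL-2 signals, differed by 0.87 (adjusted p = 0.00438) and Jun, a component of AP-1, by 1.30 (adjusted p = 0.0109). Tbx21, the T-box factor that binds the Ifng locus, differed by 0.83 and was not called without WT replicate 3 (0.74). Irf4 was lower (-0.40), a call lost without WT replicate 1 or 3 or lin28Tg replicate 1 or 2 (-0.39 to -0.35) and with no filter. In let-7Tg 1 was higher than in WT, Nfatc1 (0.56, adjusted p = 0.0253), and 3 lower, of which Myc at -0.51 (adjusted p = 0.0388) and Stat5a at -0.63, where 3.24% of all genes were called. Each of these 3 calls held in 6 of 13 alternative fits and was lost without any 1 of the WT libraries or without let-7Tg replicate 3, and those of Nfatc1 and Stat5a also without let-7Tg replicate 2 (0.49 to 0.64 for Nfatc1, -0.60 to -0.39 for Myc and -0.67 to -0.58 for Stat5a over the 13). In CTLs 2 of 27 were called between lin28Tg and WT, near the 4.34% of all genes, Nfatc1 at -0.53 and Irf4 at -0.96. Nfatc1 was not called without WT replicate 1 or 2 or lin28Tg replicate 2 or 3 (-0.56 to -0.45), and Irf4 was called without only 1 of the 6 libraries, WT replicate 2 (-1.13 to -0.73 over the 13 alternatives).

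Of 10 genes that control the decay of cytokine mRNAs, Zc3h12d, of the regnase family of RNA-degrading proteins, was lower in lin28Tg than in WT at all 3 stages, at -0.63 in naive cells (adjusted p = 0.00343), -0.87 at 12 h (0.0163) and -1.38 at day 5 (0.0179). At 12 h and at day 5 it was the only gene of the list called between them, where 8.49% and 4.34% of all genes were. The call at 12 h was lost without WT replicate 1 (-0.76) or 3 (-0.73) or lin28Tg replicate 2 (-0.90) or 3 (-0.81), and that at day 5 without WT replicate 1 (-1.27) or lin28Tg replicate 2 (-1.36) or 3 (-1.18). Its level was 8.17 ± 0.622 FPKM in lin28Tg, 15.5 ± 4.05 in WT and 22.2 ± 1.25 in let-7Tg at 12 h, and 1.92 ± 0.742, 5.83 ± 0.952 and 10.2 ± 2.38 in CTLs (SD, n = 3). None of the 10 was called between let-7Tg and WT at any stage (12 h: Zc3h12d 0.51, adjusted p = 0.134).

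Of the nearest tested genes on either side of these loci, apart from the 8 genes themselves, Il22, Acsl6, P4ha2 and Mapkapk2 were called between lin28Tg and WT at 12 h. Dyrk2, Ltb, 4932438A13Rik, Cetn4, Gm15429, Suco and Nfkbil1 were not, where 8.49% of all genes were called. Neighbours outside the gene lists above were not recomputed under the alternatives. Acsl6, 36521 bases beyond Il3, was 1.09 higher in lin28Tg than in WT (adjusted p = 0.0239), and P4ha2, 115606 bases before Csf2, was 0.80 higher (adjusted p = 0.00613). Mapkapk2, next to Il10, was 0.24 higher at 12 h (adjusted p = 0.0305), when Il10 had almost no reads. Dyrk2, on the other side of Ifng from Il22, differed by 0.00 (adjusted p = 0.989).

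Over the 27 libraries, the pair with the most alike levels was Il2 and Il3 (Pearson r = 0.99 of log2 levels), followed by Tnf and Lta (0.96). Fasl and Il10 reached 0.84. With the mean of each stage subtracted, Il2 and Il3 were again the most alike (0.87), ahead of Ifng and Csf2 (0.79) and Csf2 and Il3 (0.79), while Tnf and Lta reached 0.61, Fasl and Il10 0.69, and Lta and Il10 0.01. These values describe the same 27 libraries, share their depth, and over all stages mostly reflect the stages. Outside 12 h, Il2 and Il3 had few or no reads. The likeness of this pair therefore rests mostly on the 12 h libraries, also with stage means subtracted.

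**Figure D4:**
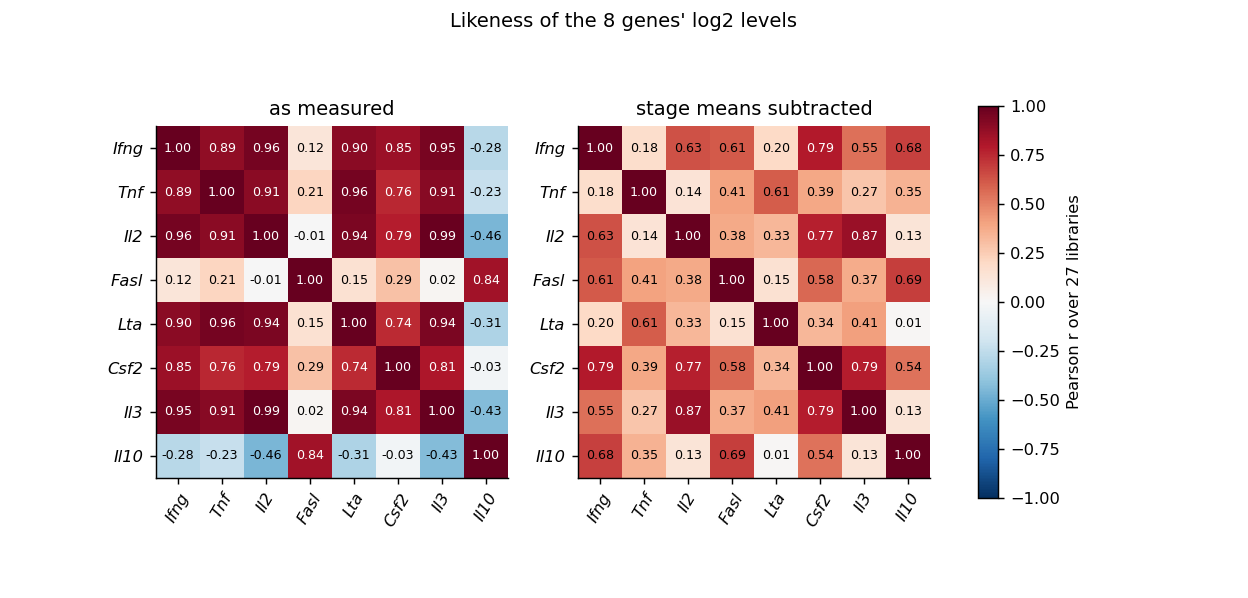
Pearson r between the log2 levels of each pair of the 8 genes over 27 libraries, as measured (left) and with the mean of each stage subtracted (right), on a colour scale from -1 to 1. Il2 and Il3, which had few or no reads outside 12 h, are the most alike pair in both panels (0.99 and 0.87). With stage means subtracted Tnf and Lta form a pair (0.61) apart from Ifng, Il2, Csf2 and Il3.

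Of all genes tested, those with levels most like each of the 8, by r with stage means subtracted over the 27 libraries, were Il1rl1 (0.94) and Klrc1 (0.92) for Ifng, Dusp5 (0.86) and Fos (0.86) for Tnf, and Nr4a3 (0.78) for Lta. They were Lrrk1 (0.91) and Adam8 (0.90) for Fasl, Cxcl2 (0.92) for Il2, Gm9745 (0.96) and Cd70 (0.92) for Il3, Il13 (0.90) and Il17a (0.87) for Csf2, and Klra5 (0.97) and Trim16 (0.94) for Il10. As measured, the most like were Hsf2 (0.97) for Ifng, Ksr1 (0.97) for Tnf, Cnih2 (0.97) for Lta, Cd70 (0.91) for Csf2 and Trim16 (0.98) for Il10.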

How the data were processed

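RNA of 27 libraries was sequenced as paired-end reads. Per the study's methods and the submitters' processing notes, the authors aligned reads with TopHat2 2.0.9 and Bowtie2 2.0.6 to GRCm38, counted them with HTSeq 0.6.1 and tested groups with DESeq2. The authors deposited FPKM per library in a table for each stage. Group means of scaled counts, fold changes and p-values of the authors' own comparisons are also in those tables and were not used. FPKM are set per library, so levels were compared across the tables. All 462839 values above 0 came out as whole reads (100%, tolerance 0.01), which gave the library totals.

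FPKM were scaled between libraries by trimmed means of their log ratios (30% of ratios and 5% of levels trimmed at each end), and log2(FPKM + 0.5) was tested with limma 3.58.1 (R 4.3.3), with a trend in the variance and Benjamini-Hochberg adjustment at 0.05 over all genes tested. Genotypes were compared in the 9 libraries of a stage, and stages and changes of a genotype difference between stages in all 27. A gene entered where at least 3 libraries reached the level of 10 reads at the median depth and at least 15 reads lay over all libraries of the model. That kept 13277 genes in naive cells, 12239 at 12 h, 13030 at day 5 and 14453 over all stages. Il2, Csf2, Il3 and Il10 in naive cells, Il10 at 12 h and Il2 and Il3 at day 5 were not tested between genotypes. Fold changes are on the log2(FPKM + 0.5) scale, which understates those of low genes. Read ratios have exact 95% intervals for counting error only, and a floor of 3 reads stands for a group at 0. The fit was tested on simulated 12 h libraries with changes of 1 or 2 on the log2 scale put in. There, 197 of 200 changed genes were called, with 8 unchanged ones. How often the fit calls a change at the spread and read numbers of the 8 genes described here was not tested.

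Alternatives were a pseudocount of 0.1 or 1, no filter, no scaling, voom weights on the recovered reads, a replicate block, the compared groups alone, and each library left out. Replicate numbers come from the labels. The study calls the libraries of a group biological replicates of a single experiment, without saying which mice or cultures they came from, so p-values measure the spread between these libraries within it. Same-numbered libraries deviated together at day 5 in all 3 genotype comparisons (r = 0.25 to 0.71, each pair over 0.1) and at 12 h between let-7Tg and WT (0.24 to 0.55). These pairings come from the same data that the block was then used on. All 8 genes are named, and of each gene list the 2 genes with the smallest adjusted p in a comparison and genes whose role is described. The genes and lists were chosen with earlier results of these data known. Positions are from GENCODE M21 on GRCm38, in which 34490 of the 35275 gene IDs were found, and 3′ UTRs are the longest per gene there. The annotation release that the authors counted with is not given in the sources used here.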

Additional observations from a re-analysis of the deposited data

Results flagged for a closer look

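The results below are genotype differences that changed between stages by a test of the change itself (limma on all 27 libraries, adjusted p under 0.05), given as the change on the log2 scale. With weights from the recovered read counts none of them was called.

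From naive cells to 12 h, the difference between lin28Tg and WT grew by 1.75 for Il2 (SE 0.435, adjusted p = 0.0159), by 2.38 for Csf2 (SE 0.554, 0.0105) and by 2.93 for Il3 (SE 0.409, 0.000218). The Il2 change was lost without lin28Tg replicate 3 of 12 h (1.39). Against let-7Tg it grew by 2.51 for Ifng (SE 0.691, 0.0177), 1.74 for Il2 (0.00957), 2.07 for Csf2 (0.0149) and 2.15 for Il3 (0.00132). The Ifng change was lost without let-7Tg replicate 1 of naive cells (2.07) or let-7Tg replicate 3 of 12 h (2.23). With a pseudocount of 0.1 none of the changes of Ifng (1.75), Il2 and Csf2 given here was called.

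From 12 h to day 5, the difference between lin28Tg and WT changed by -1.88 for Il2 (SE 0.435, adjusted p = 0.01003), -2.24 for Csf2 (SE 0.554, 0.0154), -2.93 for Il3 (SE 0.409, 8.82e-05) and 1.81 for Il10 (SE 0.529, 0.0418). The Csf2 change was lost without lin28Tg replicate 3 of day 5 (-1.77). The Il10 change was lost in 9 of the fits that left out a library, without any 1 of the 6 WT and lin28Tg libraries of 12 h, WT replicate 1 or 3 of day 5, or lin28Tg replicate 2 of day 5 (1.26 to 1.92). Between lin28Tg and let-7Tg the change was -2.005 for Il2 (adjusted p = 0.00186), -2.14 for Il3 (0.000569) and 2.93 for Il10 (SE 0.529, 0.000327).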

How the results depend on the processing

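Counts of the 8 genes called moved by over 1.5 times in these alternatives. Between lin28Tg and WT, naive cells gave 2 instead of 1 without a filter (Il10 added), and day 5 gave 0 with voom weights (Ifng lost) and 3 with the replicate block. Between let-7Tg and WT, 12 h gave 0 instead of 1 without a filter and with the compared groups alone, and day 5 gave 1 instead of 0 with the block. Changes of the lin28Tg difference from WT gave 1 instead of 3 (naive to 12 h) and 1 instead of 4 (12 h to day 5) with a pseudocount of 0.1, 0 and 0 with voom weights, and 2 for the second with the groups alone. Against let-7Tg they gave 2 instead of 4 with a pseudocount of 0.1 and 0 with voom weights (naive to 12 h), and 5 instead of 3 with a pseudocount of 1, 0 with voom weights and 5 with the block (12 h to day 5, Fasl and Csf2 added). Leaving out a library gave 1 to 2 in naive cells (lin28Tg against WT, and against let-7Tg), 0 to 2 at 12 h (let-7Tg against WT), 0 to 1 at day 5 (lin28Tg against WT) and 0 to 1 for the let-7Tg change from 12 h to day 5. The cause was not tested.

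The Il10 change between lin28Tg and WT from 12 h to day 5 turned from 1.81 to -0.21 with voom weights (adjusted p = 0.974). Of the 147 values of a gene in a comparison, 74 were called, and 57 signs of values not called turned, 49 of them with a library left out. Without a filter the naive Ifng call between lin28Tg and let-7Tg was lost too (adjusted p = 0.0651). Leaving lin28Tg replicate 2 out of the naive read ratios was chosen after seeing the data. The replicate block changed no other call than those given and Lta at 12 h.

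Over all genes, the calls between let-7Tg and WT were the least stable: 124 in naive cells became 42 without a filter, 51 with voom, 71 with the block and 69 with the groups alone; 396 at 12 h became 82, 347, 240 and 36; and 121 at day 5 became 57, 48, 528 and 1, and 73 with a pseudocount of 0.1. Between lin28Tg and WT at day 5, 566 became 343, 546, 1752 and 193, and between lin28Tg and let-7Tg 2812 became 4732 with the block. Changes from naive to 12 h became 684 (pseudocount 0.1) and 230 (voom) instead of 1134 against WT, and 822 (voom) instead of 1935 against let-7Tg; those of let-7Tg became 6, 0 and 7 (alone) instead of 14, and from 12 h to day 5 112 (no filter), 80 and 28 instead of 195. At under 10 reads per library, as for Csf2 in WT, depth limits the size of a difference.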
